A study of Mus musculus with 4 samples.

Results

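The H1t peaks examined here lay in a pair of zinc finger gene clusters, on mouse chromosomes 2 and 12. A listed peak was a member when its centre fell between 174.5 and 178.5 Mb of chromosome 2 or between 17.5 and 24.5 Mb of chromosome 12 (GRCm38), a rule that used position only. The chromosome 2 window held 69 peaks and the chromosome 12 window 290, so that 359 of the 48681 listed peaks were members. The peaks came from H1t ChIP-sequencing of testicular cells of C57BL6 mice at postnatal day 20, with 2 libraries immunoprecipitated with a rabbit anti-H1t antibody and 2 input libraries without antibody. The labels name pachytene cells, whereas the methods describe testicular cells with no purification step, and a peak list holds no expression with which the cell type could be checked. The authors pooled the libraries of each kind before calling peaks, at 39221290 ChIP and 30377916 input fragments after filtering, so each peak has 1 value and no replicate error. Every interval below is a 95% interval and covers counting error only.

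H1t is a linker histone of male germ cells that appears in spermatocytes and binds where DNA enters and leaves the nucleosome. KRAB zinc finger proteins hold a row of C2H2 fingers, each of which contacts a few bases of DNA. Through the KRAB box many of them recruit the co-repressor TRIM28, which brings the methyltransferase SETDB1 and the repressive mark H3K9me3, in particular to retrotransposons. Their genes lie in clusters that grew by tandem duplication, so that neighbouring genes are near copies of each other. A short sequence read from such a cluster can match several places.

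The fingers of 1 protein are joined by a conserved linker, and the DNA that encodes this linker marks finger exons. The pieces below are shown because they are finger repeats that lay under 4 of the 8 member peaks with this motif, printed with the linker motif ACNGGNGANAANCCNTA in capitals (GRCm38.p6, RefSeq).
Gm14412, chr2:177315560-177315745, minus strand: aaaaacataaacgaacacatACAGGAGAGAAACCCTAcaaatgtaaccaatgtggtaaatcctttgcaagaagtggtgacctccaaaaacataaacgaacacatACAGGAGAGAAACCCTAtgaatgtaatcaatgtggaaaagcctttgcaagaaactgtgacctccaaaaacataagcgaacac
Zfp970, chr2:177475494-177475679, plus strand: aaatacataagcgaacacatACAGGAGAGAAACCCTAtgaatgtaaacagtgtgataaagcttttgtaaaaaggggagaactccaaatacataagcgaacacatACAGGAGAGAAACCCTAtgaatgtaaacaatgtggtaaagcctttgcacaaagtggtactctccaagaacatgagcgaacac
LOC108167983, chr12:18151588-18151773, plus strand: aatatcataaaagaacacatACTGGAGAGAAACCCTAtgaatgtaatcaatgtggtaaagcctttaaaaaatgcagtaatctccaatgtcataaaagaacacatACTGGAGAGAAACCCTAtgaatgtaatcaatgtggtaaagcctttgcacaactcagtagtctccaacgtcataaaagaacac
Gm5953, chr12:19303104-19303289, plus strand: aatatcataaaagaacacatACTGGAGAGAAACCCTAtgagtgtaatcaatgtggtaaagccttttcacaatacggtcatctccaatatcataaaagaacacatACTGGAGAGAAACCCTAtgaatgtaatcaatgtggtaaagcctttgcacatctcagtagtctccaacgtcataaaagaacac
Gm14412 is annotated as a pseudogene, Zfp970 as a protein-coding gene with 14 fingers, LOC108167983 as a transcribed pseudogene and Gm5953 as an RNA gene of no named class. The next pieces are shown because the sequence of a member peak recurred many times in its own window. In the first, 120 bases of the chromosome 12 peak with the highest fold are followed by the closest copy that lay under another peak, with its 12 differing bases in capitals.
Highest-fold peak of the chromosome 12 window, chr12:23962776-23962895, plus strand: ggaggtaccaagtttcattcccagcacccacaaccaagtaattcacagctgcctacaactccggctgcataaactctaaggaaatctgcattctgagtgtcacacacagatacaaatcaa
Copy under the peak in Gm9282, chr12:22024618-22024737, plus strand: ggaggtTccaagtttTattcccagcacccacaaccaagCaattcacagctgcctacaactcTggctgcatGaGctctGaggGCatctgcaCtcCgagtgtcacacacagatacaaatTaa
In the second, 120 bases of a peak in Gm14412 on chromosome 2 are followed by a copy with 10 differing bases under another peak and by a copy with 1 differing base under no listed peak.
Peak in Gm14412, chr2:177294229-177294348, plus strand: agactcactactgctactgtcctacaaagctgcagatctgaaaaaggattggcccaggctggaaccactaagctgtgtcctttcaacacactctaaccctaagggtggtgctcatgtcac
Copy under the widest peak of the chromosome 2 window, chr2:177074049-177074168, plus strand: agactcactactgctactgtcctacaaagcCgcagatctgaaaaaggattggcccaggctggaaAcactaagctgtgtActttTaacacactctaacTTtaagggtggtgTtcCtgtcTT
Copy under no listed peak, chr2:174981092-174981211, minus strand: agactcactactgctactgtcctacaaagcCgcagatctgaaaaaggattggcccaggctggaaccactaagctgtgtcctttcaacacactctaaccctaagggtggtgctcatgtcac

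The chromosome 12 window held more than the chromosome's usual density of H1t peaks, and the chromosome 2 window did not. The 290 peaks of chromosome 12 made 41.4 per ungapped Mb over 7 Mb, against 19.2 on the rest of the chromosome, a ratio of 2.16 (1.90 to 2.44, exact Poisson). The 69 peaks of chromosome 2 made 19.4 per Mb over 3.55 ungapped Mb, against 19.2 on the rest, a ratio of 1.01 (0.79 to 1.28). When each chromosome was tiled at the same window size, the other 15 tiles of chromosome 12 held between 14.3 and 24.1 peaks per Mb, all below the window. On chromosome 2 the other 43 tiles ranged from 13.5 to 26.0, and 18 of them lay above the window. Among peaks with a p under 0.01, the chromosome 2 ratio was 1.65 (0.82 to 2.99). For comparison, the KRAB zinc finger cluster between 145 and 148 Mb of chromosome 4 held 374 peaks, with a density ratio of 7.79 (6.98 to 8.68) to the rest of its chromosome. The intervals of these 3 ratios did not overlap.

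Within the chromosome 2 window the peaks lay on either side of an almost empty middle. The first 750 kb held 19 peaks and the last 1.5 Mb held 48, whereas the 6 bins of 250 kb from 0.75 to 2.25 Mb held 1 peak together. Between 177 and 178 Mb, still among the zinc finger genes and with 85.6 to 88.7% of words repeated per bin, there were 30 peaks. Between the peaks that end and begin it, chr2:175265444-176762836 held no listed peak over 1147 kb of ungapped sequence. This was the longest such stretch of chromosome 2 and ranked 2 among the autosomes by ungapped length. At the density of the whole chromosome it would hold 22.0 peaks. The stretch contained 17 zinc finger genes, among them Zfp965, Zfp966, Zfp967, Zfp968, Zfp969 and Zfp973. In it 99.4% of the 31-base words of the genome sequence occurred more than once in the assembly, with a median of 15 copies. The stretch was picked because it was empty, so its count is a description, and how fragments were divided among copies this alike was not tested.

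The chromosome 12 window showed no such gap. All of its 28 bins of 250 kb held peaks, from 4 to 17 each, and the longest distance between neighbouring peaks was 117 kb. The median distance was 16.3 kb, against 18.5 kb on chromosome 2. A block of single-copy genes divides the window, from Asap2, which encodes an ARF GTPase-activating protein, through Cpsf3, a subunit of the mRNA 3' end processing complex, to Ywhaq, which encodes 14-3-3 theta. Before Asap2 there were 157 peaks, or 43.5 per Mb (36.9 to 50.8), and after Ywhaq 126 peaks, or 40.9 per Mb (34.1 to 48.7). The block itself held 7 peaks over 0.306 Mb, or 22.9 per Mb (9.20 to 47.1). Of the genes with a zinc finger protein or a KRAB box, 15 of 17 before Asap2 lay on the plus strand and all 11 after Ywhaq on the minus strand, so that the duplicated parts lie in opposite orientation.

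**Figure D1:**
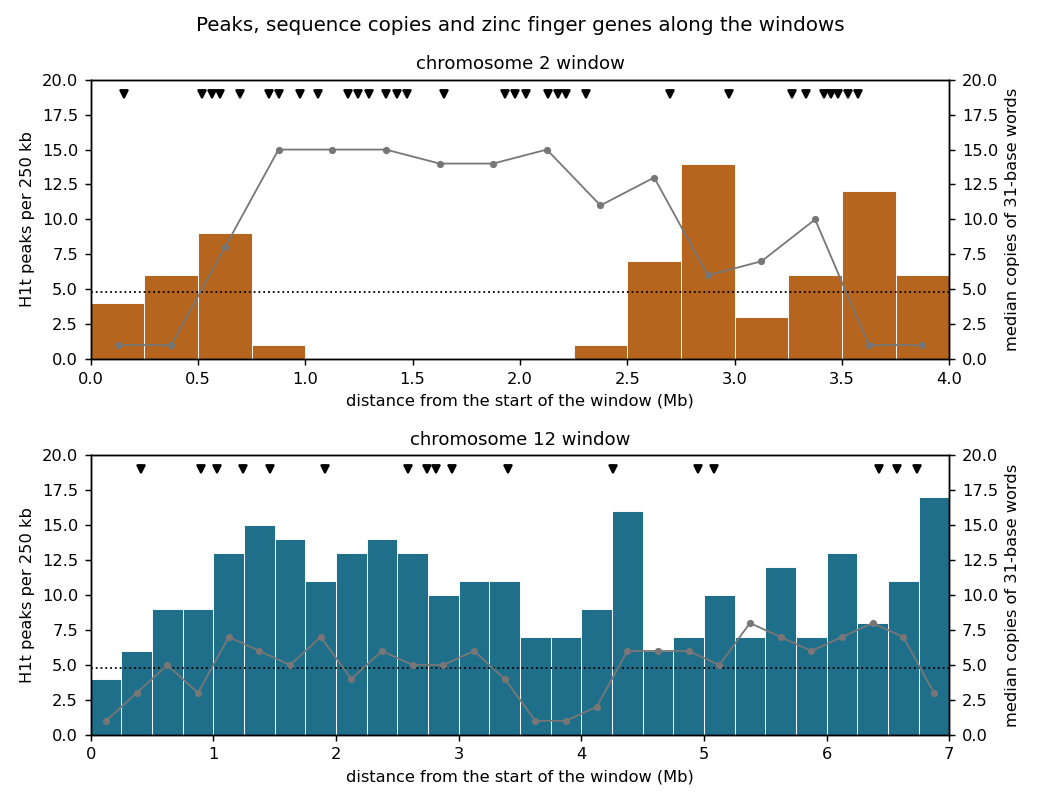
Number of H1t peaks (bars, left axis) and median number of assembly copies of 31-base words (grey line, right axis) per 250 kb, by distance from the start of each window in Mb; triangles mark zinc finger genes and the dotted line the mean of the rest of the chromosome. The bars fall to 0 in the middle of the chromosome 2 window, where the median copy number is 14 to 15, and stay between 4 and 17 on chromosome 12.

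The peaks of both windows were weak. The fold is the authors' ratio of ChIP pileup to the pileup expected from the input. This expectation was more than 2% above the genome-wide 4.95 fragments at 98 of the 359 members. At the others the fold follows the ChIP pileup almost alone. The median fold was 1.76 on chromosome 2 (quartiles 1.68 to 1.83) and 1.74 on chromosome 12 (1.68 to 1.81), against 1.73 over all listed peaks. The highest fold was 2.20 on chromosome 2 and 2.25 on chromosome 12, whereas the list reached 28.4. A fold of at least 2 was reached by 3 of 69 peaks on chromosome 2 (4.35%, Wilson 1.49 to 12.02%) and by 9 of 290 on chromosome 12 (3.10%, 1.64 to 5.79%), near the 3.64% of all listed peaks. A p under 0.01, not adjusted for the number of regions, was listed for 11 peaks on chromosome 2 (15.9%, 9.14 to 26.3%) and 38 on chromosome 12 (13.1%, 9.70 to 17.5%), against 11.8% of the list. A q under 0.05 was listed for 0 of the 359 members, which allows a share of up to 0.836% (3 counts), against 0.255% of the list, although the file header states that q would not be computed. Peak width had a median of 854 bp on chromosome 2 and 682.5 bp on chromosome 12, against 653 bp in the whole list.

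On chromosome 2 the highest fold belonged to chr2:174801959-174802884, an intergenic peak with a fold of 2.20, a pileup of 12.15 fragments and a p of 0.00126. It lay outside the repeated sequence, since 3.46% of its words recurred. The second, chr2:177847199-177847442, had a fold of 2.03 over 244 bp that were wholly lower case in the genome, which marks repeats and low-complexity sequence, and its words had a median of 51 copies. The next ones, with folds of 2.004, 1.95 and 1.94, all lay in introns of the pseudogene Gm14412, and the sixth, with 1.93, in an intron of the long non-coding RNA gene Gm14403. The highest pileup, 15.56 fragments at chr2:175162905-175163416, stood on a local background of 9.51 and had a fold of 1.58, and its words had a median of 694 copies. The next pileups were 14.56 in an intron of the RNA gene Gm40017 and 14.34 in introns of LOC115489542 and Gm14393, on backgrounds of 7.40 and 8.37. The widest peaks were 5174, 2754 and 2150 bp long, with folds of 1.76, 1.95 and 1.79, and the second lay in Gm14412. By centre the others were intergenic, although the third reached into LOC115489542.

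On chromosome 12 the highest fold belonged to chr12:23962756-23963757, in an intron of Gm17330, a predicted KRAB zinc finger gene with 17 fingers. Its fold was 2.25, its pileup 12.4 fragments and its p 0.00104, and 93.6% of its words recurred, with a median of 14 copies. The next 5 folds ran from 2.13 to 2.103 and were intergenic, apart from 1 in an intron of Gm40847. The highest pileups, 22.73 and 20.6 fragments, lay close together at chr12:20231483-20232328 and chr12:20226747-20228144, on local backgrounds of 14.8 and 12.2, with folds of 1.503 and 1.63. Most words of this pair were single copy, with 21.7% and 31.4% repeated. The third pileup was 15.36, with a fold of 1.94. The widest peaks were 3457, 3240 and 2857 bp long, at folds of 1.68, 1.77 and 1.92.

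**Figure D2:**
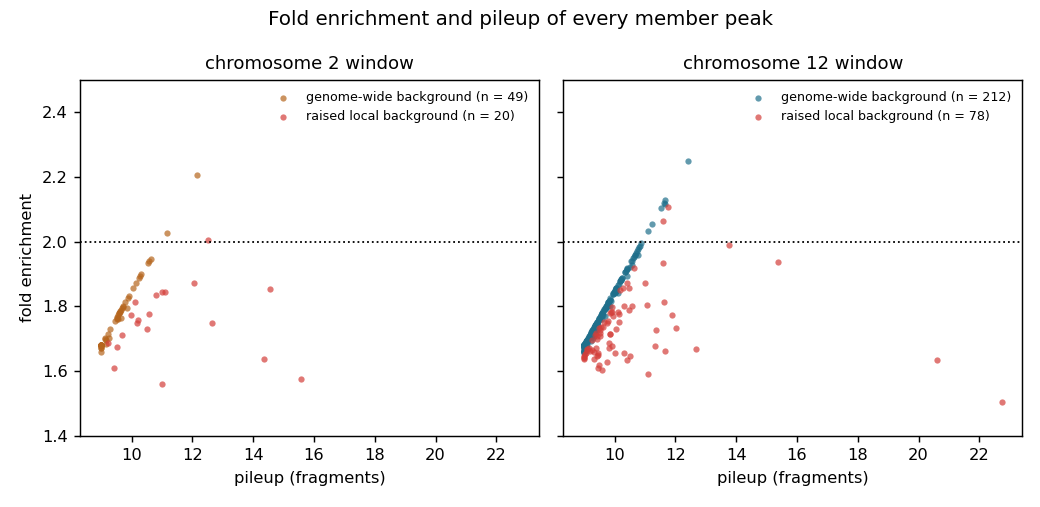
Fold enrichment against pileup in fragments for each of the 69 and 290 member peaks; red points have a raised local background and the dotted line marks a fold of 2. The points on the genome-wide background form a line that ends at 2.20 and 2.25, and the points with the highest pileup have folds of 1.58 and 1.503.

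A raised local background, more than 2% above the genome-wide 4.95 fragments, was found at 20 of 69 peaks on chromosome 2 (28.99%, 19.6 to 40.6%) and at 78 of 290 on chromosome 12 (26.9%, 22.1 to 32.3%). The rest of chromosome 2 had 19.1% (17.8 to 20.5%), the rest of chromosome 12 had 20.2% (18.5 to 21.9%) and the whole list 22.3%. The chromosome 2 share overlapped that of its chromosome, and the chromosome 12 share lay just above that of its own. Among chromosome 12 members with a p under 0.01 the share was 21.1% (11.1 to 36.3%). At this cutoff the share on the rest of the chromosome was not computed. In the chromosome 4 cluster 81.0% of peaks stood on a raised background (76.7 to 84.7%), above both windows. Within the windows, multicopy and other peaks had overlapping shares, 34.9% against 19.2% on chromosome 2 and 25.9% against 33.3% on chromosome 12.

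The members held more repeated sequence than the other peaks of their chromosomes. A peak was called multicopy when at least 50% of its 31-base words occurred more than once in the assembly on either strand. On chromosome 12, 251 of 290 members were multicopy (86.6%, 82.1 to 90%), against 12.9% on the rest of the chromosome (11.5 to 14.4%). On chromosome 2 the count was 43 of 69 (62.3%, 50.5 to 72.8%), against 10.2% (9.24 to 11.3%). The chromosome 4 cluster lay between the windows, with 77.8% (73.3 to 81.7%) against 14.2% on the rest of its chromosome. Over all peaks of both chromosomes, members included, 15.6% were multicopy. The sequence of the windows was itself repeated, since 75.1% of all words of the chromosome 12 window and 71.8% of those of the chromosome 2 window recurred. Under the peaks the repeated share of words was 76.9% on chromosome 12, near that of its window, and 53.8% on chromosome 2, below it. The chromosome 2 window includes the long peak-free stretch, which was picked for being empty and in which 99.4% of words recurred. The share of the window without this stretch was not computed, so the lower value does not show that peaks avoided repeated sequence. Most copies were local, since 70.1% of the repeated words under chromosome 12 members and 75.3% of those on chromosome 2 had every copy in their own window, as had 76.9% of those in the chromosome 4 cluster.

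**Figure D3:**
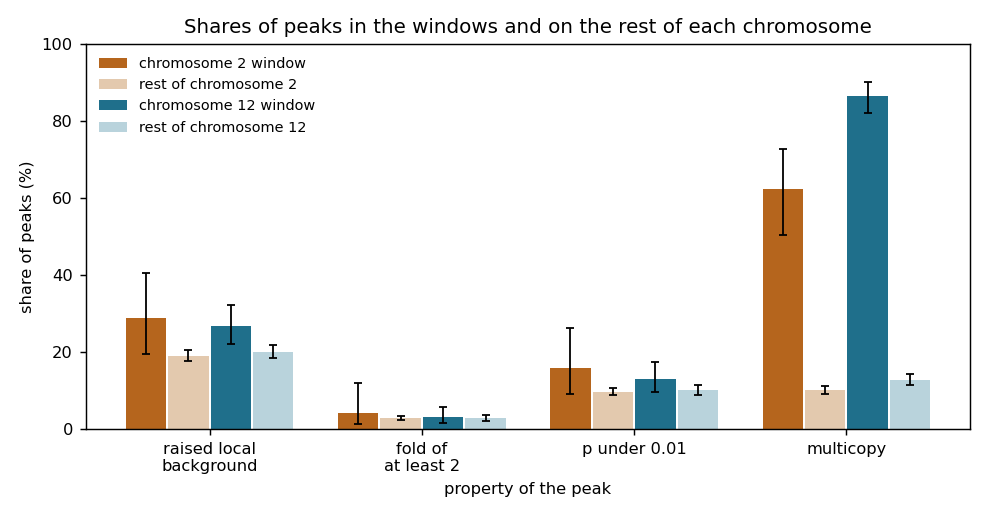
Share of peaks in percent with a raised local background, a fold of at least 2, a p under 0.01 and a multicopy sequence, in the windows (dark bars) and on the rest of each chromosome (pale bars); error bars are 95% Wilson intervals. The multicopy shares, 62.3% and 86.6%, stand far above the pale bars at 10.2% and 12.9%, whereas the intervals for a fold of at least 2 overlap.

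Peak density by copy number differed between the windows in 1 of 4 classes. In bins of 50 kb whose words had a median of 1 copy, chromosome 2 and chromosome 12 each held 22 peaks over 850 kb, or 25.9 per Mb (16.2 to 39.2). With 2 to 5 copies the density was 29.2 per Mb on chromosome 2 (17.6 to 45.6) and 44.6 on chromosome 12 (36.9 to 53.5). With 6 to 10 copies it was 43.3 per Mb on chromosome 2 (23.1 to 74.1, 13 peaks in 6 bins) and 42.8 on chromosome 12 (35.96 to 50.5). With over 10 copies it was 8.57 per Mb on chromosome 2 (4.80 to 14.1, 15 peaks in 40 bins) and 43.3 on chromosome 12 (23.1 to 74.1, 13 peaks in 6 bins). Most of this class on chromosome 2, 1047 of 1750 kb, was the peak-free stretch, which was picked for being empty. Outside the stretch the density was 21.3 per Mb (11.9 to 35.2), and the intervals of the windows overlapped.

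**Figure D4:**
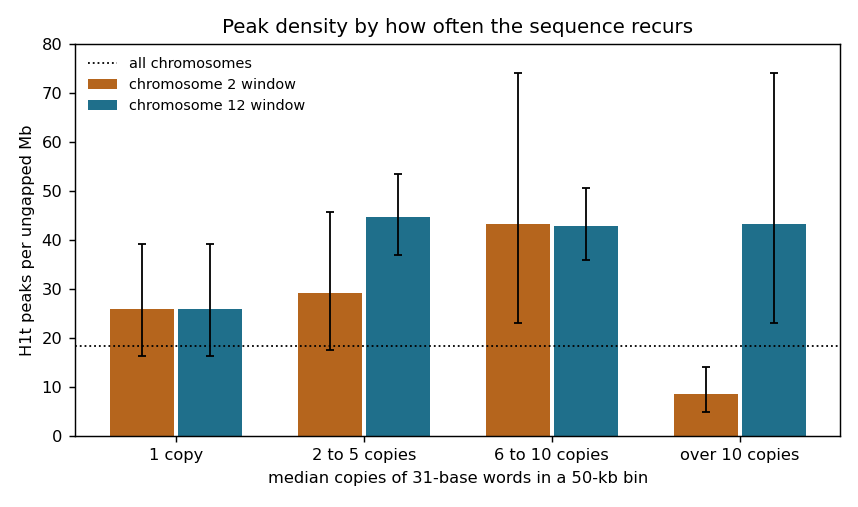
H1t peaks per ungapped Mb in 50-kb bins, grouped by the median number of assembly copies of the bin's 31-base words; error bars are 95% exact Poisson intervals and the dotted line is the density over all chromosomes. The windows start at the same 25.9 per Mb, and the chromosome 2 bar rises to 43.3 before it falls to 8.57 in the last group, which holds the peak-free stretch.

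The members shared sequence with each other. At 80% identity or more over at least 50% of the shorter peak, 232 of 359 members (64.6%) fell into 57 families, and at 90% identity 174 (48.5%) fell into 56. The same joining was not run on other peaks or on other sequence of the windows. Of all words, 71.8% recurred in the chromosome 2 window and 75.1% in the chromosome 12 window, so these shares describe the windows as much as the peaks. On chromosome 12 the 90% families took in 162 of 290 peaks and on chromosome 2 they took in 12 of 69. A single family at 90% held peaks of both windows, against 6 at 80%. The largest family at 80% had 39 peaks of chromosome 12 and 8 of chromosome 2, with a median of 41.7% lower-case bases and no linker motif. The second had 12 and 4 peaks, was lower case over a median of 89.0% and held the linker motif in 8 of its 16 peaks, all the members with that motif. Families group peaks that share a common stretch through intermediates, so peaks of 1 family need not all cover the same bases.

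On chromosome 12 the sequences of the families recurred along the window, and whether they belong to 1 repeated unit was not tested. The sequence of the central peak of the largest 90% family, at chr12:18497296-18499552, aligned at 42 places in the window with a median spacing of 136 kb, and 7 of these lay under a listed peak. The families of the peaks at chr12:24117862-24118579 and chr12:19725813-19726934 also had 42 copies each, of which 6 and 5 lay under a peak. There were 12 chromosome 12 families of 4 or more peaks other than the finger family. Their number of copies ran from 6 to 53 and the number under a peak from 3 to 8. Their median spacing ran from 113 kb to 1152 kb, the latter in the family with 6 copies. Copies of 1 sequence were thus listed at some places and not at others. The families were formed from listed peaks, so part of each count under a peak was set in advance. How often other repeated sequence of the window lay under a peak was not computed. The 120 bases shown from the highest-fold peak had 39 copies in the window within 24 differing bases, and 2 were under a peak, both counts with the piece itself included. Of the copies elsewhere, 2 were identical to it and 0 of these lay under a listed peak. On chromosome 2 the 120 bases shown from the peak in Gm14412, with a fold of 1.94, had 57 copies, again with the piece itself included. Of these, 3 lay under a peak and 23 in the long peak-free stretch. Aligners place a fragment with several equal matches at 1 of them, no mapping quality filter is named in the sources used here, and the part of this in which copies were listed was not tested.

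**Figure D5:**
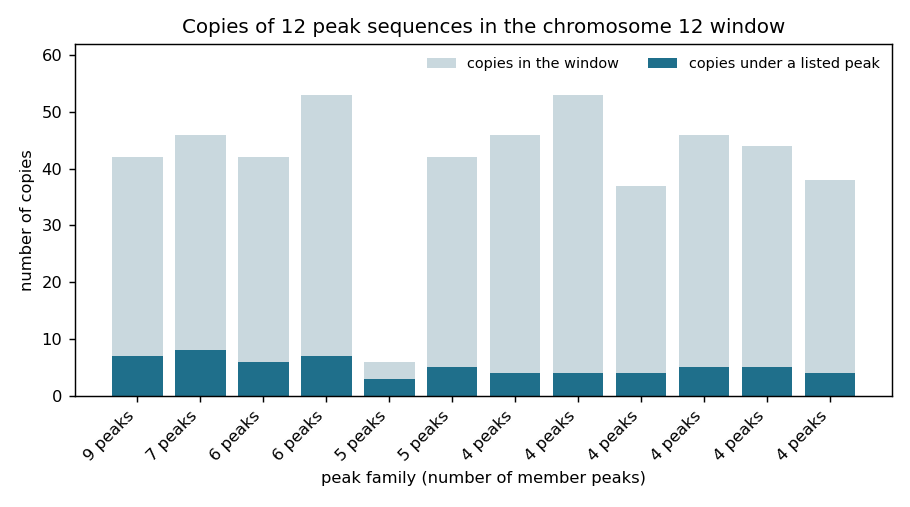
Copies in the chromosome 12 window (pale bars) and copies under a listed peak (dark bars) of the reference peak of 12 families, each labelled by its number of member peaks. The pale bars reach 53 copies and the dark bars no more than 8. The families were formed from listed peaks, which sets part of each dark bar.

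Finger repeats lay under some of the member peaks. Linker motifs on either strand, 17 letters long and grouped when within 1 kb, formed 79 arrays in the chromosome 2 window and 47 in the chromosome 12 window. A member peak overlapped 2 arrays on chromosome 2 (2.53%) and 7 on chromosome 12 (14.9%), and 23 of 26 arrays overlapped a peak in the chromosome 4 cluster. Peaks covered 1.95%, 3.04% and 32.7% of the ungapped sequence of these windows. These are shares of single bases. An array spans many bases and so meets a peak more often, and the array shares cannot be judged against them. The peak-free stretch of chromosome 2 held 36 of the arrays. Counted by peaks, 2 of 69 members on chromosome 2 and 6 of 290 on chromosome 12 contained the motif, or 2.23% of the 359 (1.13 to 4.33%), against 0.148% of all listed peaks and 0.0462% of all windows of 650 bases. The regions were chosen as zinc finger clusters, so a share above those of the whole list and genome is set by that choice. The share of other sequence of the same clusters that holds the motif was not computed. The peak with the most linkers, 14, was in Gm14412 and had a fold of 1.75. Zfp970 carried 10 linkers under its peak, at a fold of 1.84. A motif match is a description of the letters only.

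Most peaks lay outside the bodies of the zinc finger genes that name the clusters, as did most of the sequence of each window. By symbol, description or a protein with at least 3 fingers, the chromosome 2 window held 32 such genes and the chromosome 12 window 17. Peak centres fell in their bodies at 8 of 69 peaks on chromosome 2 (11.6%, 5.99 to 21.2%), while the bodies covered 22.4% of the window. These bodies include those of the 17 genes in the peak-free stretch, which was picked for being empty. On chromosome 12 peak centres fell in zinc finger gene bodies at 34 of 290 (11.7%, 8.51 to 15.9%), with 9.10% of the window covered. In the chromosome 4 cluster the share was 55.9% (50.8 to 60.8%), with 46.2% covered. With genes that carry a KRAB box or a product named zinc finger included, the chromosome 12 share was 23.4%, with 19.2% of the window covered. Of the 11 chromosome 2 members with a p under 0.01, 0 were centred in a zinc finger gene (0 to 25.9%). This interval includes both the 11.6% of all members and the 22.4% of the window covered, so no difference from either was shown. By gene, 6 of 32 zinc finger genes overlapped a peak on chromosome 2 (18.75%) and 9 of 17 on chromosome 12 (52.9%), against 23.4% of all genes of these chromosomes. Of all genes, 17 of 93 on chromosome 2 and 51 of 121 on chromosome 12 overlapped a peak. Gene length was not matched in these shares. By centre, 162 peaks of chromosome 12 were intergenic, 117 intronic and 11 exonic, and on chromosome 2 the counts were 32, 33 and 4. No member was centred in a coding exon, 4 and 7 overlapped one, and 3 and 7 were centred within 1 kb of a gene start.

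Among the zinc finger genes of chromosome 2, LOC115489542 and Gm14393, which overlap each other, held 5 peaks each, and Zfp831, Zfp970, Zfp971 and Gm14322 held 1 each. Zfp831, a zinc finger gene outside the repeated core, had a peak with a fold of 1.76 in single-copy sequence. The peak of Zfp970, chr2:177475420-177477207, overlapped its coding sequence. The other 26 zinc finger genes held none, including all 17 in the peak-free stretch. Of the genes outside the zinc finger list, the pseudogene Gm14412, which holds finger repeats but no annotated protein, held 8 peaks over 130 kb. Gm41986 lies inside Gm14412 and held 3 of the same peaks. Gm40017 held 2, and Gm14438 and Gm14403 1 each.

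At the distal end of the chromosome 2 window lie 3 unrelated protein-coding genes with peaks in mostly single-copy sequence. Phactr3, a phosphatase and actin regulator, held 10 peaks over 220 kb, more than any other gene of the window, with folds up to 1.89. Cdh26, a cadherin, held 3 with folds up to 1.79. Sycp2, which encodes a lateral element protein of the synaptonemal complex and acts in meiotic prophase, held 1 peak at chr2:178382391-178382789, centred in an intron and touching a coding exon, with a fold of 1.83 and a pileup of 9.91.

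On chromosome 12 the most peaks lay in the longest gene models of the array. Gm40847, a predicted gene with a KRAB box, 16 fingers and a product named after Asap2, held 17 peaks over 220 kb, or 0.077 per kb. Gm40862, also an Asap2-like product with a KRAB box, held 15 over 238 kb. The pseudogenes Gm9282 and Gm4036 held 6 each, and 9030624G23Rik, a KRAB gene with 13 fingers, 2410018L13Rik, the pseudogene Gm4012 and Asap2 held 5 each. Gm9257, whose product is named as zinc finger protein 120-like, and LOC108167983 held 4 each, at 0.076 and 0.071 per kb. The other zinc finger genes with peaks were Gm5784 and Gm17330 with 3 each, Zfp125 with 2, and Gm9222, Gm40881, Gm21297 and LOC115488023 with 1 each. The 8 that held none included Zfp996 and 5730507C01Rik.

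The remaining protein-coding genes of chromosome 12 with a peak were mostly copies within the array. Gm40864 held 4, Gm3993 and Gm38538 held 3 each, Gm3973 and LOC108167368 2 each, and Gm10476 and Gm38702 1 each, and all of these carried a KRAB box by a sequence pattern but no row of at least 3 fingers. Of the 6 genes with a product named hippocalcin-like protein 1 besides Hpcal1 itself, Gm6943 held 2 peaks and Gm40853 and Gm4120 held 1 each. Hpcal1, the calcium-binding protein gene outside the array, held 1 peak with a fold of 1.90, and Cpsf3 held 1 with a fold of 1.70. Asap2 itself had folds from 1.66 to 1.75. RefSeq models of this array are largely predicted and near-identical, so the assignment of a peak to 1 copy is uncertain.

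Lower-case bases made up 40.8% of the bases under chromosome 12 peaks and 42.7% of the window, against 31.9% under the peaks of the rest of the chromosome. On chromosome 2 they made up 36.9% under the peaks, below the 49.4% of the window, against 31.6% under the peaks elsewhere on the chromosome. The window value includes the long peak-free stretch, which was picked for being empty, and a value without it was not computed. GC content was 45.4% under chromosome 12 peaks and 44.9% in its window, and 42.8% and 41.6% on chromosome 2. The median number of CpG per 100 bases was 0.645 on chromosome 12 and 0.741 on chromosome 2, against 0.729 over all listed peaks.

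The window edges passed through sequence with listed peaks on both sides. At the start of the chromosome 2 window the folds just inside and outside were 1.83 and 1.67, and at its end 1.79 and 1.60. On chromosome 12 they were 1.72 and 1.80 at the start and 1.74 and 1.73 at the end.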

How the data were processed

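H1t ChIP and input were each measured in 2 libraries. The authors used FastQC 0.11.5 for read quality, Bowtie2 for alignment on GRCm38.p5, and MACS2 2.1.2 in broad mode on pooled libraries at an unadjusted p cutoff of 0.05. Their deposited list gives each peak's ChIP signal as a pileup of fragments, the fold (a ratio to the pileup expected from input) and the −log10 of p and q. The column read as q holds values although the file header says none were computed. With 1 added to pileup and background, as MACS2 does, the local background follows from pileup and fold.

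Coordinates were read on GRCm38.p6, where no peak ended past its chromosome. Genes came from RefSeq, with zinc finger symbols listed only by GENCODE vM21 added. Families came from BLAST+ 2.17.0, other values from Python 3.11.15, numpy 2.4.6, pandas 2.3.3, scipy 1.17.1, networkx 3.6.1, numba 0.67.0 and matplotlib 3.10.9, tested on simulated data. The windows, lists and named-item rules were chosen with earlier results of these data known. For each window the rule named the 6 highest folds, 3 highest pileups, 3 widest peaks, 10 genes with the most peaks, every other protein-coding gene with a peak, and Sycp2. Alternatives covered peak thresholds, merging, window limits, word length, gene lists and identity. No p was computed.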

Additional observations from a re-analysis of the deposited data

How the results depend on the processing

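The alternatives left 60 of 86 values inside the 95% interval of the reported value (for the lower-case share, from the spread over peaks), or within 1.5 times it for counts of genes. Some settings moved the chromosome 2 window. Among peaks with a p under 0.01, its density ratio was 1.65 and its share of fold at least 2 was 27.3%. Fold and p rest on the same pileup and background, so this filter raises the fold share by design. The window's lower-case share was then 29.2%, its share in zinc finger gene bodies 0% (0 to 25.9%) and the genes that overlapped a peak 5. Among peaks with a fold of at least 2, of which it held 3, these were 1.54 for density, 26.9% lower case, 33.3% multicopy, 0% in zinc finger bodies and 1 gene. By bases covered the density ratio was 1.43, trimmed to its zinc finger genes the window was 82.7% multicopy, and Zfp symbols alone held 4.35% of peaks. In the chromosome 12 window, a p under 0.01 gave a density ratio of 2.78, 21.1% at raised background, 44.98% lower case and 14 genes. The share with a fold of at least 2 was 23.7%, again raised by the filter itself. A fold of at least 2 gave 22.2% in zinc finger bodies and 2 genes. A 25% minimum of repeated words gave 93.8% multicopy, Zfp symbols alone 0.690% in zinc finger bodies and the list with KRAB genes 23.4%. With over 10% above the genome-wide background as the limit, 17.4% of chromosome 2 and 8.28% of chromosome 12 peaks were raised. At 90% identity 48.5% of members were in families.

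The point value of the density ratio of chromosome 12 stayed above 2 in all 7 alternatives. Its lower limit was below 2 wherever an interval was computed, down to 1.01 for a fold of at least 2. The alternatives for genes with a peak, and the list with KRAB genes, were chosen after seeing the data. No paired analysis was possible because the authors called peaks on pooled libraries, and leaving out a replicate could not be run for the same reason. Depth limits the members, since each rested on pileups of 9 to 22.73 fragments.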
